A study of Mus musculus with 12 samples.

Results

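The mouse mitochondrial chromosome carried 37 of the 47729 genes counted in each library, and every gene whose chromosome was given as MT in the count files was taken. They were 2 rRNA genes, 13 protein genes and 22 tRNA genes. Bulk RNA-seq was run on flow-sorted mesenchymal cells of healthy uteri from female mice of the strain Pdgfrb-BAC-eGFP, in which GFP follows the activity of Pdgfrb regulatory sequence carried on a transgene. The 6 Naive libraries came from GFPtotal cells, which hold GFPhigh perivascular cells together with GFPlow stromal fibroblasts, and the 6 Stromal libraries came from the GFPlow cells, which the sample labels call GFPdim. The design infers the GFPhigh profile from this comparison. No treatment was given, no age is given here, and both groups carry the transgene. The series names 12 cycling mice, but no label ties a library to a mouse, so a p-value here measures the spread between libraries.

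Mitochondrial DNA encodes core subunits of the respiratory chain and of ATP synthase, together with the rRNAs and tRNAs that translate them inside the organelle. Both strands are transcribed as long precursors, and the tRNAs that lie between the other genes are cut out to release the mature rRNAs and mRNAs. All other subunits, and the enzymes that transcribe and process mitochondrial RNA, are made from nuclear genes.

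The libraries held between 12631266 and 18425596 counts and between 18228 and 21587 genes with at least 1 count. The file of the library labelled Stromal 6 names its input N8, whereas the other 11 of 12 headers match their labels, so results were also computed without it. Its summed level of 8 perivascular markers was 30.8 CPM (counts scaled to a common library size), the highest of the Stromal libraries (7.77 to 30.8 CPM) and far below the Naive range of 976 to 1778 CPM. All 8 perivascular markers were called higher in Naive by edgeR, beside 4.55% of all genes. Without Naive 3, 4 and 5 edgeR called 7 of 8, beside 1.56% of all genes, and Kcnj8 had an adjusted p of 0.106. Among the 8 was Rgs5 at 779 ± 114 against 4.79 ± 3.94 CPM (SD, n = 6 each). In these sorted pools a smaller number of cells of a type and less RNA per cell cannot be told apart. Naive 3, 4 and 5 stood apart from the other Naive libraries in earlier results on these data. Their summed level of 5 fibroblast markers was 18631 to 22309 CPM, against 29048 to 31703 CPM in Naive 1, 2 and 6 and 11937 to 18128 CPM in Stromal. Most of this sum in Naive was Col3a1 and Col1a1, with means of 11231 and 10552 CPM. With Naive 3, 4 and 5 left out, the log2 fold change (Naive minus Stromal) rose from 0.69 to 0.84 for Col3a1. It rose from 0.82 to 1.24 for Col1a1 and from 0.20 to 0.59 for Lum. It fell from 0.39 to 0.33 for Dcn and from 0.30 to -0.20 for Pdgfra, so the 5 markers did not move together. The perivascular sum of Naive 3, 4 and 5 was higher, 1473 to 1778 CPM against 976 to 1309 CPM in Naive 1, 2 and 6. Their sum of 5 epithelial markers was higher too, 7.55 to 11.7 CPM against 0.71 to 5.40 CPM. Summed markers of epithelial (0.71 to 11.7 CPM), endothelial (32.5 to 59.3 CPM), leukocyte (3.30 to 17.1 CPM) and erythroid cells (6.44 to 15.7 CPM) were low in all libraries, and mesothelial markers were at 0 outside Naive 3. Of 4 endothelial markers tested, Cdh5 was called lower in Naive (-1.67, edgeR adjusted p = 0.0374), beside 0.854% of all genes. It ran from 2.85 through a median of 4.94 to 7.63 CPM in Naive and from 5.03 through 9.62 to 39.5 CPM in Stromal. Without Naive 3, 4 and 5 Cdh5 had -1.48 (edgeR adjusted p = 0.273) and was not called. Kdr had -0.89, whereas Emcn had 1.71 and Tek 1.04, and these 3 were not called.

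Mitochondrial genes took between 32.4% and 49.0% of all counts in every library. In Naive the share was lowest at 32.4%, had a median of 42.9% and was highest at 49.0%, with a mean of 41.1% ± 6.87 (SD, n = 6). In Stromal it was lowest at 35.1%, had a median of 38.6% and was highest at 45.7%, with a mean of 40.0% ± 4.21 (SD, n = 6). The groups overlapped, and the difference of 1.07 percentage points was smaller than the pooled SD of 5.69 points. Within Naive the libraries were ordered by the split described above, in which the fibroblast, perivascular and epithelial sums also moved, and the part of these in the share was not tested: Naive 1, 2 and 6 held 45.3%, 45.9% and 49.0%, and Naive 3, 4 and 5 held 40.5%, 32.4% and 33.6%. The Stromal libraries lay within the Naive range, with the highest shares in Stromal 4 (45.7%) and Stromal 5 (44.5%). Counting error was small beside this spread, since the widest exact (Clopper-Pearson) 95% half-width of a library's share was 0.0265 points, an interval that covers counting error only. Without Stromal 6 the difference was 0.59 points.

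**Figure D1:**
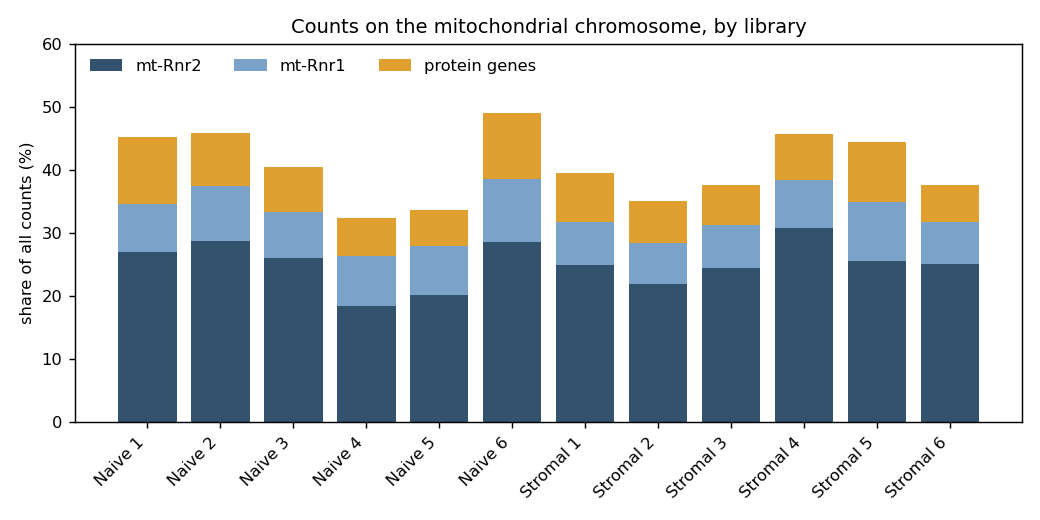
Share of all counts (%) on the mitochondrial chromosome in each of the 12 libraries, with mt-Rnr2, mt-Rnr1 and the protein genes stacked (the tRNA genes, at most 0.0511%, are not drawn). The stacks reach from 32.4% in Naive 4 to 49.0% in Naive 6, and the Stromal libraries fall within that range.

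The rRNA genes held most of these counts, at 33.1% ± 4.96 of all counts in Naive and 32.7% ± 3.43 in Stromal (SD, n = 6 each). The protein genes held 8.03% ± 2.18 in Naive and 7.29% ± 1.37 in Stromal. The split between these classes differed by less than the SD, since protein genes made up 19.3% ± 2.59 of the mitochondrial counts in Naive and 18.2% ± 2.45 in Stromal. With both rRNA genes left out of numerator and denominator, the mitochondrial share was 12.2% ± 3.99 in Naive and 10.9% ± 2.37 in Stromal. It ran from 7.80% in Naive 5 to 16.9% in Naive 6. The tRNA genes held 0.0194% ± 0.00157 in Naive and 0.0257% ± 0.0130 in Stromal, where Stromal 5 alone reached 0.0511%.

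Per library and gene, levels are given below as CPM with TMM scaling, which sets library sizes so that most genes balance. Its factors ran from 0.823 in Naive 6 to 1.20 in Naive 4, so a library rich in mitochondrial counts reads higher in CPM than in its plain share. Of the 37 genes, 12 passed the low-count filter and entered the test: both rRNA genes, 9 protein genes and mt-Tp, the tRNA for proline. In edgeR's quasi-likelihood test of Naive against Stromal none of the 12 was called at an adjusted p under 0.05, beside 5.41% of all 14523 genes tested (785 genes). None of the 12 had an unadjusted p under 0.05 either, beside 19.9% of all genes, and DESeq2, which called 9.1% of its genes, called 0 of the 13 members to which it gave an adjusted p, with 0 at an unadjusted p under 0.05. The groups overlapped in all 12, whereas 3.66% of all genes had groups that did not overlap. The log2 fold change (Naive minus Stromal) was above 0 for 11 and below 0 for 1, with a median of 0.26, beside a median of -0.000549 over all genes tested. The members share 1 chromosome and its precursor transcripts, so these directions are not independent of each other.

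The small-subunit rRNA gene mt-Rnr1 (ENSMUSG00000064337, GRCm38 chromosome MT, positions 70 to 1024, plus strand) ran from 66108 through a median of 80964 to 123143 CPM in Naive. In Stromal it ran from 58436 through 62775 to 101959 CPM. Naive 6 and Naive 2 were highest in the first group and Stromal 5 in the second, and the ranges overlapped. The fold change was 0.28 on the log2 scale (SE 0.194, 95% interval -0.12 to 0.69, adjusted p = 0.456), which spans 0.917-fold to 1.62-fold. The large-subunit rRNA gene mt-Rnr2 (ENSMUSG00000064339, positions 1094 to 2675, plus strand) was the mitochondrial gene with most counts in every library. It ran from 153372 through 286788 to 346083 CPM in Naive and from 198439 through 230609 to 334182 CPM in Stromal. In CPM Naive 4 and Naive 5 were the lowest of all 12 libraries, and Naive 6 and Naive 2 the highest. In plain share of all counts Stromal 4 was highest, at 30.8%. The fold change of mt-Rnr2 was 0.08 (SE 0.218, 95% interval -0.38 to 0.54, adjusted p = 0.887), and under total library size scaling it was -0.04.

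Complex I, the NADH dehydrogenase that feeds electrons into the chain, has 7 of its subunits on this chromosome, and 5 of those genes had a mean of at least 100 counts per library. For mt-Nd1 (ENSMUSG00000064341, positions 2751 to 3707, plus strand) Naive ran from 2783 through 6135 to 9290 CPM and Stromal from 3195 through 4342 to 9113 CPM. Stromal 5 stood among the high Naive libraries, at 9113 CPM, and the fold change was 0.23 (SE 0.344, adjusted p = 0.773). For mt-Nd2 (ENSMUSG00000064345, positions 3914 to 4951, plus strand) Naive ran from 1830 through 5151 to 8835 CPM and Stromal from 3391 through 3998 to 5192 CPM. In CPM Naive 1, 2 and 6 lay above all Stromal libraries in this gene, and Naive 4 and 5 below all of them. Its fold change was 0.23 (SE 0.349, adjusted p = 0.781), and it had the widest span of the 7 protein genes that passed the mean of 100 counts, with the highest library 4.83-fold above the lowest.

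The gene mt-Nd4 (ENSMUSG00000064363, positions 10167 to 11544, plus strand) ran from 8036 through 15906 to 24318 CPM in Naive and from 9388 through 12044 to 19709 CPM in Stromal, with a fold change of 0.30 (SE 0.285, adjusted p = 0.617). The next protein gene, mt-Nd5 (ENSMUSG00000064367, positions 11742 to 13565, plus strand), ran from 8343 through 21590 to 31293 CPM in Naive. In Stromal it ran from 11252 through 14209 to 26796 CPM. Its fold change was 0.34 (SE 0.337, adjusted p = 0.637). In both genes Naive 4 and 5 were the lowest libraries, and in mt-Nd5 Naive 1, 2 and 6 lay above all Stromal libraries in CPM. The gene mt-Nd6 (ENSMUSG00000064368, positions 13552 to 14070) is the only protein gene on the minus strand. It ran from 173 through 474 to 832 CPM in Naive and from 255 through 336 to 552 CPM in Stromal, with a fold change of 0.34 (SE 0.359, adjusted p = 0.665). In CPM Naive 1, 2 and 6 were again above all Stromal libraries and Naive 4 and 5 below all of them, a 4.82-fold span.

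Cytochrome b, the mitochondrial subunit of complex III, comes from mt-Cytb (ENSMUSG00000064370, positions 14145 to 15288, plus strand). It ran from 11014 through 16454 to 27171 CPM in Naive and from 11213 through 14719 to 20496 CPM in Stromal, with a fold change of 0.22 (SE 0.229, 95% interval -0.27 to 0.70, adjusted p = 0.666). Naive 5 and Stromal 6 were about equally low, and Naive 1 and 6 were highest. The catalytic subunit of complex IV, cytochrome c oxidase, comes from mt-Co1 (ENSMUSG00000064351, positions 5328 to 6872, plus strand). It ran from 14587 through 20760 to 27854 CPM in Naive and from 14383 through 15790 to 24754 CPM in Stromal. Its fold change was 0.24 (SE 0.19, 95% interval -0.16 to 0.64, adjusted p = 0.533). Its span of 1.94-fold was the narrowest of the 7 protein genes, and its lowest library was Stromal 2 and not Naive 4 or 5.

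**Figure D2:**
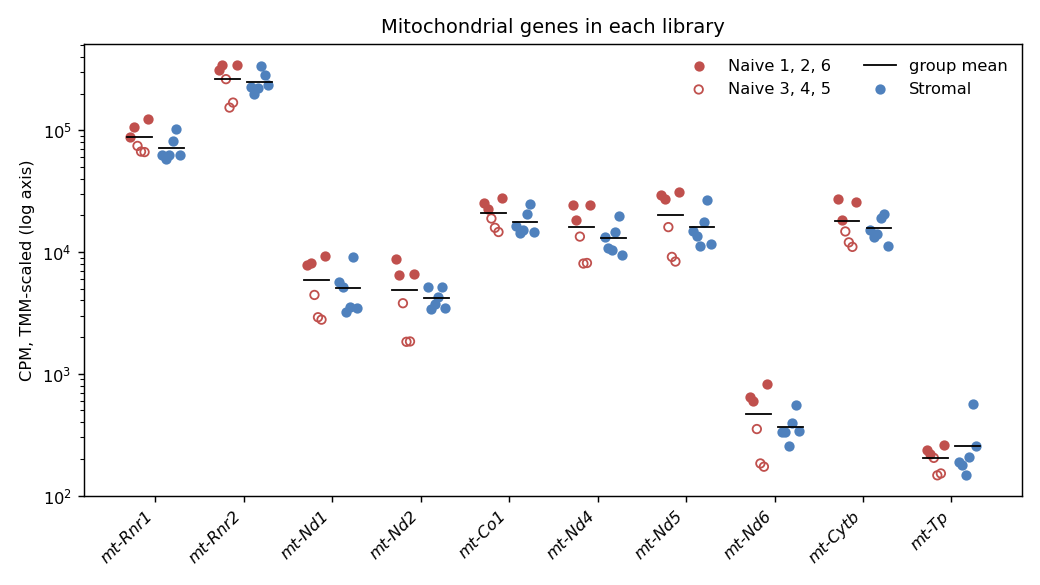
TMM-scaled CPM (log axis) of the 2 rRNA genes, the 7 protein genes with at least 100 counts per library on average, and mt-Tp. Each point is a library, open circles are Naive 3, 4 and 5, and black lines are group means over n = 6. In the 7 protein genes the open circles lie below the filled Naive points. The Stromal points overlap both, except in mt-Nd2, mt-Nd5 and mt-Nd6, where the filled Naive points lie above all Stromal points.

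Levels per length can be compared between genes. The mean over the 12 libraries, in CPM per kilobase of gene, was 162554 for mt-Rnr2 and 83167 for mt-Rnr1. It was 14730 for mt-Cytb, 12450 for mt-Co1, 10555 for mt-Nd4, 9902 for mt-Nd5, 5714 for mt-Nd1 and 4382 for mt-Nd2. The minus-strand gene mt-Nd6 had 800 CPM per kilobase, the lowest of the 7. Neighbours in this order were not tested against each other. The counting took no account of strand, so reads from mt-Nd6 and from RNA antisense to it cannot be told apart. Part of mt-Co1 and mt-Nd4 also occurs in nuclear copies (described below), and the part of this in their levels was not tested.

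Across the 7 protein genes, in TMM-scaled CPM, all of Naive 3, 4 and 5 lay below all of Naive 1, 2 and 6 in 7 of 7. The share of all genes with such a split, or with the orders given below, was not computed. The 7 genes share a chromosome and each library's scaling factor, so they are not independent of each other. Naive 4 or Naive 5 was the lowest of the 12 libraries in 6 of 7, and Naive 1 or Naive 6 the highest in 7 of 7. These orders depend in part on the scaling. In plain share of all counts mt-Co1 was slightly higher in Naive 4 than in Naive 2. There mt-Nd1 was lowest in Stromal 4 and highest in Stromal 5, and mt-Cytb was lowest in Stromal 6. In CPM Naive 1, 2 and 6 all lay above every Stromal library in 3, namely mt-Nd2, mt-Nd5 and mt-Nd6. In plain share of all counts none of the 3 kept this order. There Naive 2 lay below Stromal 1 in mt-Nd2 and below Stromal 5 in mt-Nd5 and mt-Nd6. With Naive 3, 4 and 5 left out, mt-Nd2 had a log2 fold change of 0.78 (SE 0.162, 95% interval 0.44 to 1.13, edgeR adjusted p = 0.0167). Under the same setting mt-Nd6 had 0.90 (SE 0.193, 95% interval 0.49 to 1.30, adjusted p = 0.0212), so 2 of the 12 were called, both higher in Naive, beside 1.88% of the 15703 genes then tested (1.56% higher in Naive). The others were not called, including mt-Nd5 at 0.85 (adjusted p = 0.052), mt-Nd4 at 0.76 (adjusted p = 0.061) and mt-Rnr2 at 0.40 (adjusted p = 0.301). The 3 libraries left out were those with the lowest mitochondrial share in Naive, so leaving them out raises the Naive levels by construction, and these 2 calls are given as a description of the 9 libraries left. Without Stromal 6 no mitochondrial gene was called, and the log2 fold changes were 0.18 for mt-Nd2 and 0.32 for mt-Nd6.

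**Figure D3:**
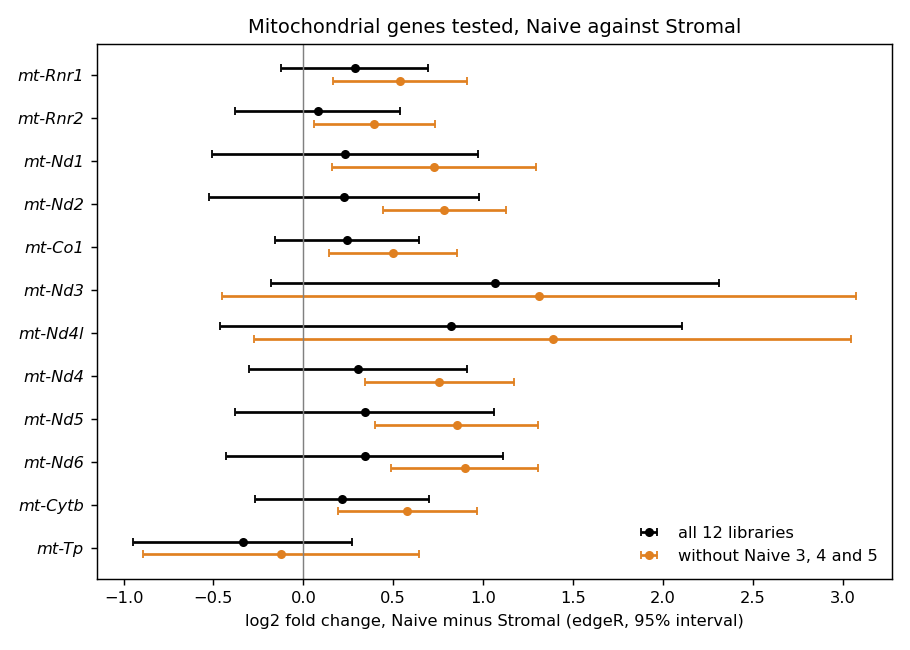
Log2 fold change (Naive minus Stromal, edgeR) of the 12 mitochondrial genes tested, with 95% intervals, from all 12 libraries (black) and without Naive 3, 4 and 5 (orange). All black intervals include 0, and 9 of the 12 orange ones lie above 0 before adjustment for the number of genes tested. The share of all genes with such an interval was not computed. The libraries left out had the lowest mitochondrial share in Naive, so leaving them out raises the Naive levels by construction.

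The make-up of the protein-gene counts also differed between libraries. The genes mt-Co1, mt-Nd5, mt-Cytb and mt-Nd4 made up most of them in every library. The share of mt-Co1 was 26.3%, 31.7% and 31.1% in Naive 3, 4 and 5, against 20.5%, 22.3% and 22.2% in Naive 1, 2 and 6 and 23.2% to 27.1% in Stromal. The share of mt-Nd5 was 22.4%, 18.3% and 17.8% in Naive 3, 4 and 5, against 23.7%, 26.7% and 24.9% in Naive 1, 2 and 6 and 19.4% to 25.1% in Stromal. Naive 4 and 5 thus held the highest mt-Co1 shares and the lowest mt-Nd5 shares of the 12 libraries, and the lowest mt-Nd2 shares, 3.67% and 3.93% against 4.87% to 7.20% in Stromal. The share of mt-Nd4 lay between 16.1% and 19.7% in the 12 libraries. Over all 6 Naive libraries the share of mt-Co1 was 25.7% ± 4.83 and over Stromal 24.8% ± 1.66 (SD, n = 6 each), a difference smaller than either SD.

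**Figure D4:**
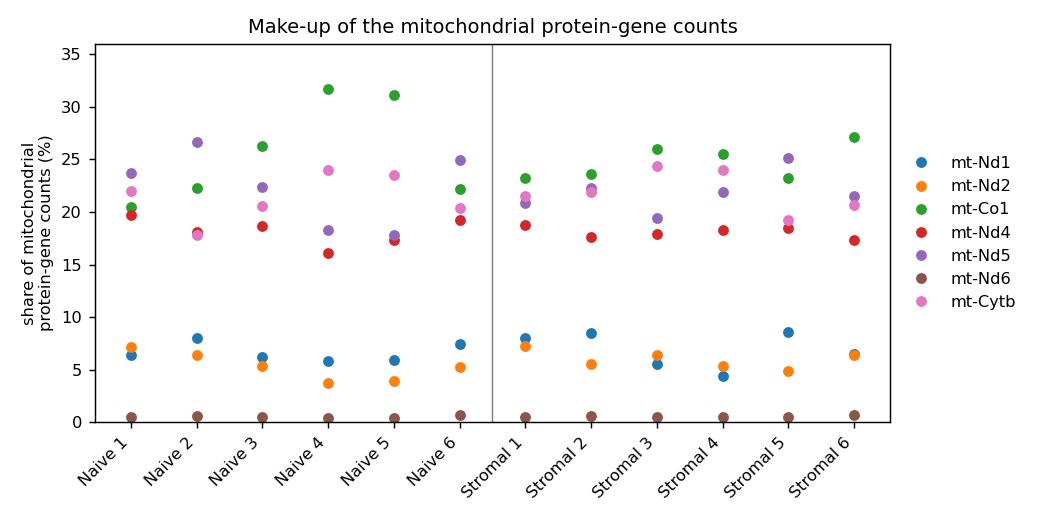
Share of the mitochondrial protein-gene counts (%) held by each of 7 genes in the 12 libraries, 1 point per gene and library, with a vertical line between Naive and Stromal. In Naive 4 and 5 mt-Co1 lies at 31.7% and 31.1% and mt-Nd5 at 18.3% and 17.8%, outside the range of the other libraries.

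Of the 13 protein genes, 6 had a mean under 100 counts per library and are listed apart. Together they held 352 of the 13762169 protein-gene counts. These were mt-Co2 (14 counts over all 12 libraries) and mt-Co3 (3 counts), core subunits of complex IV, mt-Atp6 (23 counts) and mt-Atp8 (0 counts) of ATP synthase, and mt-Nd3 and mt-Nd4l (156 counts each) of complex I. No library held more than 26 counts of any of them. The genes mt-Nd3 and mt-Nd4l passed the low-count filter, with a log2 fold change of 1.06 for the first (SE 0.59, adjusted p = 0.337), and of 0.82 for the second (SE 0.609, edgeR adjusted p = 0.505). All counts come from reads with a mapping quality of at least 10, a score that aligners set low for reads that fit several places equally well.

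The nuclear genome holds copies of mitochondrial DNA, so each gene was cut into all its windows of 50 bases and each window was looked up in the annotated nuclear transcripts of GENCODE M21 (GRCm38), on both strands. The share of windows with an exact match was 100% for mt-Co2, 99.9% for mt-Co3, 99.5% for mt-Atp6, 98.8% for mt-Nd4l and 98.0% for mt-Nd3. These 5 were the only genes above 90%, and all had almost no counts. The share was 62.2% for mt-Nd4, 51.1% for mt-Co1, 8.2% for mt-Nd2, 7.6% for mt-Nd5 and 1.0% for mt-Rnr2, all of them well counted. It was 0% for mt-Rnr1, mt-Nd1, mt-Nd6, mt-Cytb and all tRNA genes. The gene mt-Atp8 had 0 counts and no 50-base window in an annotated transcript. The protein genes on either side of it, mt-Co2 and mt-Atp6, have copies side by side on chromosome 1. A genome sequence was not used here to look between these copies. With windows of 75 bases the share was 39.8% for mt-Co1 and 99.5% for mt-Co2. With windows of 25 bases more genes had matches: 69.7% of windows for mt-Co1, 21.3% for mt-Nd5, 14.9% for mt-Nd6, 13.0% for mt-Cytb and 11.7% for mt-Atp8. Among the tRNA genes mt-Ty then had 23.3%, mt-Tl1 3.9% and mt-Tt 2.3%. No source used here gives the read length, and the part of this overlap in the low counts was not tested.

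**Figure D5:**
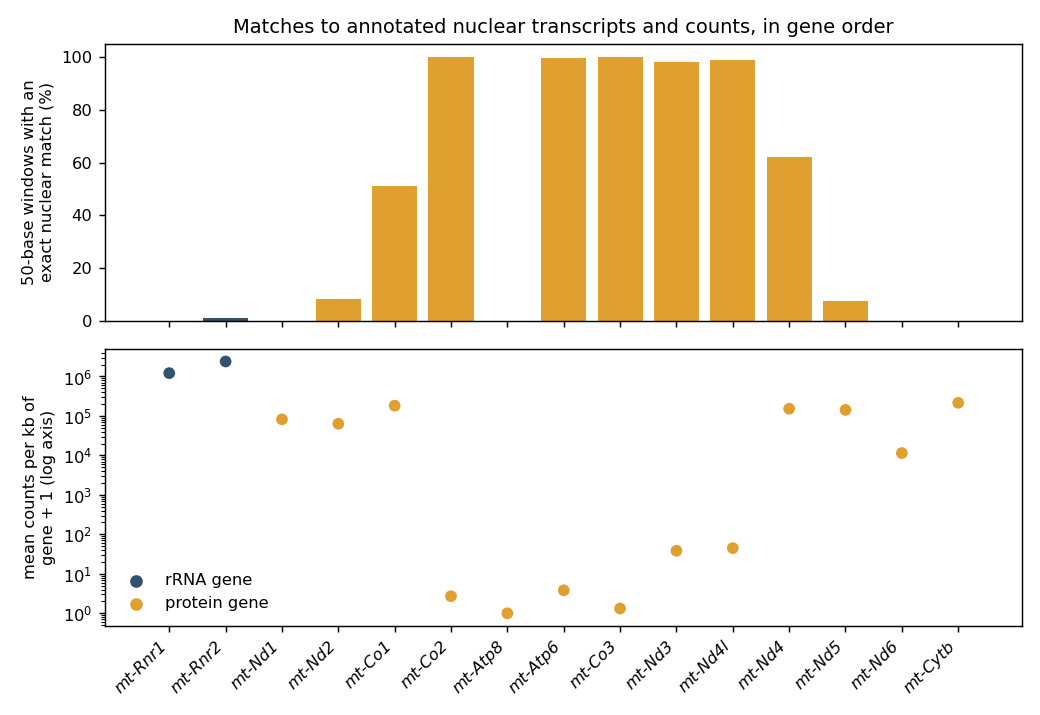
Percent of 50-base windows with an exact match in an annotated nuclear transcript (top) and mean counts per kilobase of gene plus 1 (bottom, log axis) for the rRNA and protein genes in chromosome order. The 5 genes with more than 90% of windows matched, and mt-Atp8, lie far below the other genes in counts.

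The leading copies of these 5 genes are unprocessed pseudogenes in 1 stretch of chromosome 1, on the minus strand. They are Gm28661 (copy of mt-Co2, 681 of 681 aligned bases identical), Gm10925 (mt-Atp6, 678 of 678), Gm28437 (mt-Co3, 783 of 783), Gm28438 (mt-Nd3, all but 1 base) and Gm10222 (mt-Nd4l, 294 of 294). They too had few counts, 94, 89, 7, 6 and 71 over all libraries. Adding the counts of the 14 nuclear genes that share a window to the mitochondrial counts left the group difference in share at 1.07 points. The 14 held so few counts that the mean share in Naive moved only from 41.1175% to 41.1189%. Reads removed by the mapping quality filter are in neither sum, and what they would add was not tested. The start of mt-Nd3 and of its copy are shown because they carry the only difference between the pair, and the start of mt-Cytb and of its copy on chromosome 4 as a contrasting pair that differs at many bases. Sequences are from GENCODE M21 (GRCm38), 5′ to 3′ on the gene's own strand, capitals mark differing bases, and positions are counted from 1 at the gene's first base.
mt-Nd3, chromosome MT 9459 to 9518, plus strand: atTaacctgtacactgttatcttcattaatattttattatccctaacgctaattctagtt
Gm28438, chromosome 1 24613060 to 24613119, minus strand: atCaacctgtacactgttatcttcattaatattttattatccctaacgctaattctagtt
mt-Cytb, chromosome MT 14145 to 14204, plus strand: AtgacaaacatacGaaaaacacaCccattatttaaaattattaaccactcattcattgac
Gm11410, chromosome 4 80003989 to 80004048, plus strand: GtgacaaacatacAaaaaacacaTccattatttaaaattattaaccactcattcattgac
In the first pair the substitution is T3C, and the other 344 bases are the same. In the second pair the substitutions in the 60 bases shown are A1G, G14A and C24T, and over the whole copy 82 of 1143 bases differ (92.8% identical). The gene mt-Cytb had 2953619 counts and Gm11410 had 17.

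Among the tRNA genes 1 held nearly everything: mt-Tp (ENSMUSG00000064372, positions 15356 to 15422, minus strand) had 40796 of 40904 tRNA counts, 99.7%. The other 21 tRNA genes had 108 counts together and never more than 6 in a library. Of those, 13 had any count, led by mt-Te (31 counts), mt-Tl1 (23), mt-Tf (10), mt-Tr (10) and mt-Tc (8), which carry glutamate, leucine, phenylalanine, arginine and cysteine. The remaining 8 tRNA genes, like mt-Atp8, had 0 counts in all 12 libraries, which with a floor of 3 counts in the 179979126 counts allows up to 0.0167 CPM, for counting error only. The sequence of mt-Tp is shown because it was the only tRNA gene with more than a few reads, with its anticodon in capitals, found as the middle of a 7-base loop closed by a 5-base stem.
mt-Tp, chromosome MT 15356 to 15422, minus strand: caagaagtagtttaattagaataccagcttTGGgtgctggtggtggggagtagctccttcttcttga
In position mt-Tp is the last annotated gene, next to mt-Tt on one side, with no annotated gene on the other. The first gene, mt-Tf, also has no annotated gene on its outer side, and it had 10 counts. Elsewhere the genes are packed, and the largest gap between neighbours is 32 bases, between mt-Tn and mt-Tc. A fragment that touches 2 genes was not assigned to either under the counting options in the file headers, and the part of this in the tRNA counts was not tested.

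In level, mt-Tp ran from 147 through 212 to 261 CPM in Naive and from 147 through 197 to 564 CPM in Stromal. The high value was Stromal 5 alone, since the other Stromal libraries ended at 256 CPM. The fold change was -0.34 (SE 0.287, 95% interval -0.95 to 0.27, adjusted p = 0.571), and without Stromal 5 it was 0.05 (adjusted p = 0.912). Stromal 5 was also the highest Stromal library in CPM for mt-Rnr1, mt-Nd1, mt-Nd2, mt-Co1, mt-Nd4, mt-Nd5, mt-Nd6 and mt-Cytb.

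Genes of the chromosome also overlap each other, most of all mt-Atp8 with mt-Atp6 over 43 bases and mt-Nd5 with mt-Nd6, on opposite strands, over 14 bases. The second overlap is shown on the plus strand because the ratio of these genes is described next.
mt-Nd5 and mt-Nd6 overlap, chromosome MT 13552 to 13565, plus strand: ttaatctcgagtaa

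Ratios within a library do not depend on the scaling, and 3 were tested between the groups with an exact two-sided permutation test over all assignments of the libraries to groups, for which the smallest p is 0.00216. The ratio of mt-Rnr2 to mt-Rnr1 counts, 2 genes on 1 precursor with mt-Tv between them, ran from 2.30 through 3.04 to 3.55 in Naive. In Stromal it ran from 2.78 through 3.59 to 4.09. Means were 3.00 ± 0.527 and 3.54 ± 0.441 (SD, n = 6 each), a log2 difference of -0.25 (exact permutation p = 0.0823, 0.247 after Benjamini-Hochberg adjustment over the 3). Naive 4 and 5 had the lowest ratios, 2.30 and 2.55, and without Naive 3, 4 and 5 the difference was -0.14 (exact p = 0.31). Leaving out Stromal 5 gave -0.31 (exact p = 0.0325, unadjusted). The ratio of mt-Nd6 to mt-Nd5, across the strands, was 0.0223 ± 0.00227 in Naive and 0.0235 ± 0.00298 in Stromal, a log2 difference of -0.08 (exact p = 0.387, adjusted 0.581). The highest ratios were in Stromal 6 (0.0291) and Naive 6 (0.0266), and without Stromal 6 the difference was -0.02 (exact p = 0.781). The ratio of mt-Cytb to mt-Nd1, a gene far from and a gene near the rRNA genes, was 3.31 ± 0.722 in Naive and 3.43 ± 1.24 in Stromal, a log2 difference of -0.01 (exact p = 0.955, adjusted 0.955).

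The nuclear partners of these proteins were read from the same fit. Of 83 nuclear genes of oxidative phosphorylation found, 76 were tested, 0 rose and 1 fell in Naive, beside 4.55% of all genes higher and 0.854% lower. The gene that fell was Ndufa10, an accessory subunit of complex I, which ran from 20.3 through 26.6 to 38.1 CPM in Naive and from 35.0 through 46.4 to 77.0 CPM in Stromal. The groups overlapped slightly, and its fold change was -0.86 (SE 0.221, edgeR adjusted p = 0.0292). Leaving out Naive 2, 3, 4 or 5, or Stromal 3 or 6, took the adjusted p to between 0.0504 and 0.081 (0.0648 without Stromal 6), with fold changes of -0.70 to -0.89. Without Naive 3, 4 and 5 it was -0.80 (adjusted p = 0.209). DESeq2 called 4 of the list, all lower in Naive, beside 2.28% of all genes lower in that test: Ndufa10, Sdhb, Cox6a1 and Atp5g1, the last 3 named after their values were seen. The median log2 fold change of the 76 was -0.16, with 26 above 0 and 50 below, beside -0.000549 over all genes tested.

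By complex, the medians were -0.19 for 35 nuclear subunits of complex I, -0.30 for 4 of complex II, -0.26 for 7 of complex III, -0.13 for 12 of complex IV and -0.11 for 18 of ATP synthase, and outside complex I edgeR with all libraries called no member. At an unadjusted p under 0.05 there was 1 in complex II, 0 in complex III, 1 in complex IV and 1 in ATP synthase, beside 19.9% of all genes. The DESeq2 calls there were Sdhb (-1.17, adjusted p = 0.0211), Cox6a1 (-0.99, adjusted p = 0.0283) and Atp5g1 (-1.18, adjusted p = 0.00668), and edgeR called Atp5g1 once Stromal 5 was left out (-1.26, adjusted p = 0.0429). Without Naive 3, 4 and 5 Atp5g1 had -1.25 (edgeR adjusted p = 0.22). The most abundant members were Sdha, the flavoprotein of complex II (-0.05, adjusted p = 0.896), and Sdhc (-0.25, adjusted p = 0.717). In complex III they were Uqcrc2 (-0.26, adjusted p = 0.441) and Uqcrfs1, the iron-sulfur subunit (-0.13, adjusted p = 0.85). In complex IV, Cox7c had 0.03 (adjusted p = 0.961) and Cox7b -0.03 (adjusted p = 0.968). In ATP synthase, the catalytic subunit Atp5b ran from 199 through 342 to 506 CPM in Naive and from 315 through 474 to 618 CPM in Stromal, with -0.46 (adjusted p = 0.268), and Atp5a1 had -0.32 (adjusted p = 0.377). The 11 positive fold changes on the mitochondrial chromosome thus stood beside mostly negative ones in the nuclear partners, and in edgeR with all libraries Ndufa10 was the only call in either set. Many nuclear partners were at a few CPM, where the sign is imprecise, such as Cox6b1 (mean 1.55 CPM in Naive, -0.62, SE 0.58).

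The machinery that keeps and expresses the chromosome had 0 called genes in edgeR with all libraries, beside 5.41% of all genes. At an unadjusted p under 0.05 there were 2 of 20 maintenance genes, 2 of 29 RNA processing genes and 4 of 70 ribosomal protein genes, beside 19.9% of all genes. DESeq2 called 1 gene of each list, beside 9.1% of all its genes: Polg2, Pnpt1 (1.04, adjusted p = 0.0279) and Mrpl11 (-1.51, adjusted p = 0.0265). Pnpt1, a mitochondrial RNA exonuclease, had an edgeR adjusted p of 0.0556 with all libraries and was called without Naive 1, 2 or 6 or Stromal 1 (0.0205 to 0.0451). Its fold change was 1.065 with all libraries and 0.31 without Naive 3, 4 and 5 (edgeR adjusted p = 0.74). Mrpl4 was called by edgeR without Naive 4 (-1.34, adjusted p = 0.0402) and not without Naive 3, 4 and 5 (-1.47, adjusted p = 0.105). Pnpt1, Mrpl11 and Mrpl4 are named after their values were seen. Among 20 genes of mitochondrial transcription and mtDNA maintenance the median was -0.07. Polg2, the accessory subunit of the mtDNA polymerase, ran from 34.8 through 84.4 to 227 CPM in Naive and from 19.7 through 42.2 to 76.3 CPM in Stromal, a fold change of 1.29 (SE 0.461, edgeR adjusted p = 0.132). DESeq2 gave it an adjusted p of 0.0452, and without Naive 3, 4 and 5 it had 0.22 (edgeR adjusted p = 0.882). Ssbp1, which binds single-stranded mtDNA, had 0.55 (adjusted p = 0.222). Among 29 genes of mitochondrial RNA processing the median was 0.07, with the RNA-binding protein Grsf1 at -0.23 (adjusted p = 0.489) and the exonuclease Rexo2 at -0.05 (adjusted p = 0.931). Of 78 mitochondrial ribosomal protein genes 70 were tested, with a median of -0.26, 19 above 0 and 51 below. Mrpl48 had -0.36 (adjusted p = 0.503) and Mrpl33 -0.24 (adjusted p = 0.581).

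Lists of mitochondrial biogenesis, stress, mitophagy and glycolysis had 0 called genes in edgeR with all libraries, again beside 5.41% of all genes. At an unadjusted p under 0.05 they had 1 of 10, 2 of 13, 1 of 9 and 2 of 15 genes, beside 19.9% of all genes. DESeq2 called 1 biogenesis regulator, Pprc1 (-1.32, adjusted p = 0.0469), and 0 of the other lists, beside 9.1% of all its genes. Leaving out Naive 2 led edgeR to call the mitophagy gene Bnip3 (1.89, adjusted p = 0.0459) and the glycolysis gene Pfkp (1.15, adjusted p = 0.0448), and these 3 are named after their values were seen. The median was -0.12 for 10 biogenesis regulators, with Nfe2l2, a regulator of antioxidant genes, at 0.15 (adjusted p = 0.588) and Gabpa at -0.01 (adjusted p = 0.98). It was -0.48 for 13 genes of the mitochondrial stress response, 11 of them below 0. There the chaperonin gene Hspd1 ran from 31.0 through 61.2 to 92.2 CPM in Naive and from 54.4 through 95.9 to 148 CPM in Stromal, with -0.63 (SE 0.267, adjusted p = 0.195), and Hspa9 had -0.37 (adjusted p = 0.458). The median was 0.21 for 9 mitophagy genes, with Bnip3l at -0.01 (adjusted p = 0.984) and Fundc1 at -0.05 (adjusted p = 0.95). Over 15 glycolysis genes it was -0.11, with Ldha, which makes lactate, at -0.23 (adjusted p = 0.684) and Gapdh at -0.39 (adjusted p = 0.365).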

How the data were processed

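Gene counts were those deposited by the authors, 1 file per library. Per the file headers, they are read-pair counts over exons per gene made with featureCounts 1.6.4 on Ensembl release 84 (GRCm38), with a mapping quality of at least 10, without strand, and with no option for multi-mapping or overlapping reads. The submitters' processing notes name cutadapt and SAMtools. The aligner was not given in the sources used here. Libraries were from total RNA on 4 lanes, per the labels. The deposited table of the whole series equals the single files in 12 of 12 libraries.

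All genes were fitted with edgeR 4.0.16 (filterByExpr, TMM, robust quasi-likelihood test, Benjamini-Hochberg over all genes tested, threshold 0.05), which was tested on simulated data, with R 4.3.3. DESeq2 1.42.0 was an alternative, as were other scalings, no filter, a replicate block and left-out libraries. Ratios used scipy 1.17.1. Symbols were found for 47224 of 47729 genes. Named are both rRNA genes, protein genes with a mean of at least 100 counts, the 6 tRNA genes with most counts and, of each nuclear list, up to 4 called genes or else the 2 most abundant. Members and lists were chosen with earlier results of these data known.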

Additional observations from a re-analysis of the deposited data

Results flagged for a closer look

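In 5 of the 80 groups of 6 libraries examined, 1 library lay far from the other 5, with a gap to its nearest neighbour above 0.625 of the group's range. Chance gives such a gap in about 1 in 20 groups, so a number of this size can arise without any library being unusual. In Stromal 5 the tRNA share of all counts was 0.0511%, against 0.0161% to 0.0273% in the other Stromal libraries. In the same library mt-Tp had 564 CPM, against 147 to 256 CPM, and since mt-Tp holds nearly all tRNA counts these are 1 observation. In Naive 6 the ratio of mt-Nd6 to mt-Nd5 counts was 0.0266, against 0.0201 to 0.0222 in the other Naive libraries. In Naive 4 Sdhc had 15.6 CPM, against 5.81 to 9.29 CPM, and Ldha had 100.1 CPM, against 39.5 to 56.7 CPM. What moved these values was not tested.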

How the results depend on the processing

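The number of mitochondrial genes called stayed at 0 under total library size, scaling from nuclear genes, DESeq2, no low-count filter, the replicate block and each left-out library, and was 2 without Naive 3, 4 and 5. The difference in mitochondrial share ran from -0.50 (without Naive 6) to 2.82 points (without Naive 4), and was 6.70 points without Naive 3, 4 and 5. Over all genes, calls numbered 1786 with DESeq2, 295 without Naive 3, 4 and 5, and 467 (without Naive 3) to 970 with 1 library left out, with 521 without Naive 4. Calls among nuclear oxidative phosphorylation genes were 4 with DESeq2, 0 with the replicate block or without Naive 3, 4 and 5, and 0 to 2 with 1 library left out. Total library size moved the median of all genes by -0.069.

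Same-numbered libraries did not deviate together (correlations from -0.139 to 0.0892, best with their own number in 2 of 6). These values cannot show whether the numbers pair the samples, and no label ties a library to a mouse. With the replicate block 582 genes were called, Ndufa10 had -0.84 (edgeR adjusted p = 0.0507) and was not called, and Hspd1 had -0.65 (adjusted p = 0.0411) and was. In that setting the mt-Rnr2 to mt-Rnr1 ratio had the same difference of -0.246 with an exact sign-flip p of 0.0312. That p is not adjusted over the 3 ratios, is the smallest the sign-flip test can give here, and assumes a pairing that is not known. With 1 library left out, the mt-Rnr2 to mt-Rnr1 difference ran from -0.31 to -0.17. Without Naive 3, 4 and 5 the mt-Nd6 to mt-Nd5 difference turned to 0.0044 (exact p = 1.0). The mt-Cytb to mt-Nd1 difference ran from -0.12 to 0.135 with 1 library left out.

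Directions that turned belonged to genes that were not called in either fit, and the cause was not tested. Total library size gave -0.040 for mt-Rnr2 and -0.080 for Cox7c. Without Naive 3, 4 and 5 the values were 0.028 for Uqcrfs1, 0.25 for Rexo2, 0.057 for Fundc1 and 0.021 for Mrpl48. Leaving out 1 library gave these lowest and highest values: mt-Rnr2 -0.014 and 0.20, mt-Nd2 -0.025 and 0.40, mt-Tp -0.46 and 0.054, Sdha -0.11 and 0.051, Uqcrfs1 -0.22 and 0.037, Cox7c -0.048 and 0.14, Cox7b -0.12 and 0.10, Rexo2 -0.14 and 0.050, Gabpa -0.11 and 0.048, Bnip3l -0.13 and 0.10, Fundc1 -0.18 and 0.15.

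Depth limits only the low-count members, with at most 26 counts in a library. The part of shared sequence, of fragments over 2 genes and of counting without strand in the other levels was not tested. The spread of the mitochondrial share between libraries exceeds its counting error.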
